A study of Homo sapiens with 2 samples.

Results

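The peaks described here lie in ribosomal DNA, in or beside centromeres and in arrays of small RNA genes. Others lie on mitochondrial DNA or on sequences that hg38 keeps outside its main chromosomes. The whole set was chosen by position alone. All peaks off chromosomes 1 to 22 and X were taken (81), with those whose summit fell in 7 windows of chromosomes 1, 5, 10, 17, 19 and 21 (132). This gave 213 of the 1645 peaks in the deposited list, or 12.9% (95% Wilson interval 11.4 to 14.7%, counting error only), on 27 sequences. By locus they were 112 ribosomal DNA peaks, 58 pericentromeric peaks, 16 on alternate loci, 8 in an array of snRNA genes, 3 in an array of tRNA genes, 4 on mitochondrial DNA, 8 on other scaffolds and 4 single cases.

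F36P is a human erythroleukaemia cell line. Cells carried the retroviral vector MSCV-PIG alone (Vector) or with the ETS-family transcription factor ERG joined to an AM tag (AM-ERG), and puromycin (1 µg/ml, 4 days) was used to select both. In both groups chromatin fixed with 1% formaldehyde was cut with micrococcal nuclease (20 min). From each, 10 µg was used for a pull-down through the AM tag, which Vector cells lack. The labels give 1 library per group and 1 peak list was analysed. The sources used here do not give the library it was called from, so no value has a replicate error and AM-ERG was not compared with Vector.

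In human cells the 45S ribosomal RNA gene is repeated in long tandem arrays on the short arms of the acrocentric chromosomes. RNA polymerase I transcribes it, and the product is cut into the 18S, 5.8S and 28S RNAs. Satellite DNA fills the centromeres and their flanks, and the genes of U2 snRNA, a splicing RNA, and of many tRNAs also stand in clusters of near-identical copies. Reference assemblies carry only some of these copies, so a short read can match several places. ETS factors such as ERG bind a core of GGAA, best known in the longer form CCGGAAGT.

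Few sequences at these peaks could be read, because the reference tables hold promoters and miRNA hairpins but no genome. The 4 below, from RefSeq (GRCh38.p14), mark the places to which results refer. The first is centred on the summit of the higher of the 2 chromosome Y peaks, with ACTTCCGG (CCGGAAGT on the other strand) and another TTCC in capitals. The next are 2 miRNA hairpins, of the ribosomal DNA unit and of a displaced fragment of it, with the bases they share in capitals. The last is a miRNA hairpin just upstream of a 45S gene, with its mature miRNA, miR-6724-5p, in capitals. All are on the plus strand.
Chromosome Y summit, chrY:1391791-1391891: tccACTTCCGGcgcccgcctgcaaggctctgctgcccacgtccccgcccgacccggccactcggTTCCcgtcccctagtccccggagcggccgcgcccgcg
MIR10396B, ribosomal DNA unit, chr21:8436324-8436374: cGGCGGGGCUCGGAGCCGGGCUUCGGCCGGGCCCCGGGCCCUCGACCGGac
MIR10396A, fragment, chr21:8987617-8987665: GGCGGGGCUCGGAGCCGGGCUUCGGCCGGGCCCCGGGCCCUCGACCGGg
MIR6724-4, upstream of a 45S gene, chr21:8432530-8432621: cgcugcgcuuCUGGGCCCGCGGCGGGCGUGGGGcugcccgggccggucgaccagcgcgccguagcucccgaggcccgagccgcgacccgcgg

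Most of the 213 peaks had a high background and, as a group, they had a low fold, with exceptions by locus given below. The fold is the authors' value, the fragments piled up at a summit over those expected there from the local background, each plus 1. Its median was 2.44 (95% interval of the median 2.30 to 2.61, range 1.27 to 7.80), against 4.79 (4.68 to 4.85, range 1.34 to 23.3) in the 1432 other peaks. Pileup and background, recovered from the fold and the p-value, went the other way. The median background at a summit was 33.8 fragments, 10.4 times the 3.26 of the other peaks, and the median pileup was 84 fragments against 20. So at the median these peaks stood on many more fragments than the rest but had a lower ratio of pileup to background. Their median width, 389 bp, was close to the 390.5 bp of the others.

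A fold of 4 or more was reached by 34 of the 213 peaks (16%), where the share over all peaks of the list was 67.8%. A background above 2 times the other peaks' median (above 6.51 fragments) was found under 180 of them (84.5%), against 16.9% of all peaks and 98 of the 1432 others. In the authors' deposited table, a −log10 q of 10 or more was reached by 78 of the 213, against 23.5% of all peaks. The 213 peaks held 52.3% of the summed summit pileup of the list. Of the 20 peaks with the highest pileup 18 were among them, as were 44 of the highest 50. By lowest p they were 12 of the first 20 and 21 of the first 50. By highest fold they were none of the first 20 or 50.

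Below a background of 32 fragments, the median folds of these peaks and of the others lay closer at like background than over all peaks. Where the background was below 8 fragments, 38 of these peaks had a median fold of 4.59 and 1376 other peaks had 4.80. Between 8 and 16 fragments the medians were 3.44 (14 peaks) and 3.20 (41 other peaks), and between 16 and 32 they were 2.74 (43 peaks) and 3.14 (9 other peaks). Above that, 118 of these peaks but only 6 others were left to compare. A deep background lets a low fold pass the caller's threshold, so the lowest folds can be listed only where the background is high.

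**Figure D1:**
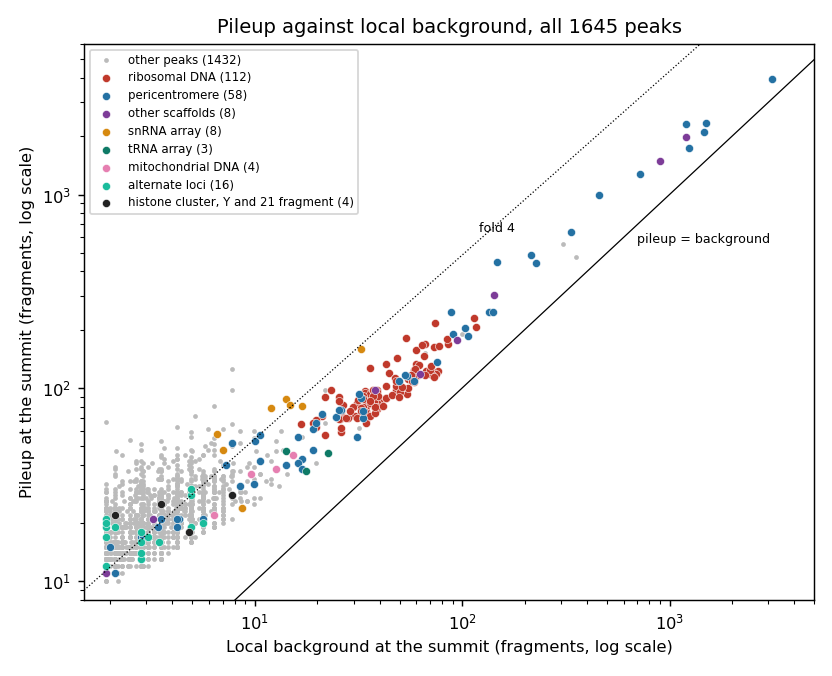
Fragments piled up at the summit (y axis, log scale) against the local background there (x axis, log scale), 1 point per peak, coloured by locus and grey for the 1432 other peaks. Ribosomal DNA forms a compact cloud between backgrounds of 16.6 and 117 fragments, the chromosome 1 flanks reach 3121.5, and the alternate loci lie among the other peaks; the solid line is pileup equal to background and the dotted line a fold of 4.

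The raised background was not common to all loci. The 33 peaks without it were all 16 on alternate loci, both on chromosome Y, 11 pericentromeric peaks, 2 on scaffolds, 1 on mitochondrial DNA and a chromosome 21 fragment. For these the description as multicopy rests on the sequence they lie on. They were picked by a background not above the limit, so that background is no separate result on copy number.

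**Figure D2:**
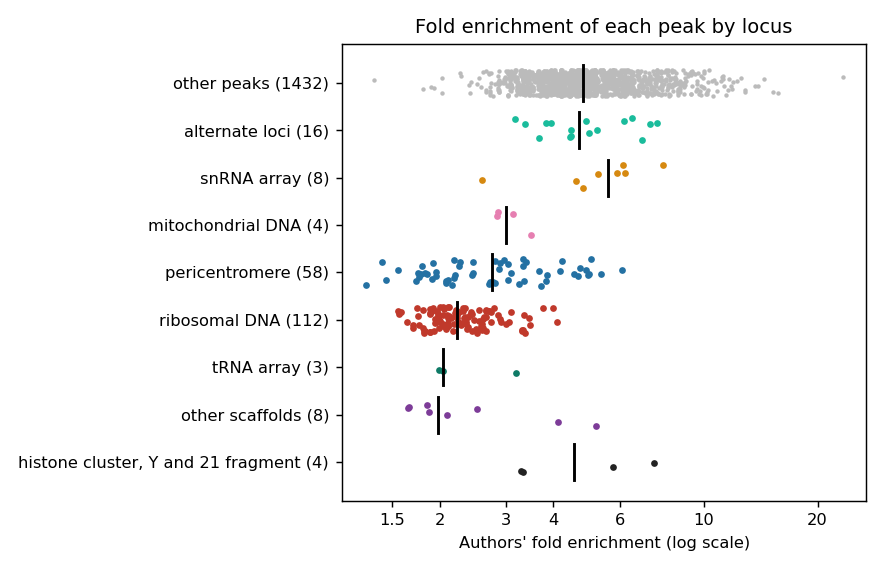
Authors' fold enrichment (x axis, log scale) of every peak, 1 row per locus with the number of peaks in parentheses and a bar at the median. The snRNA array (median 5.58) and alternate loci (4.67) overlap the bulk of the other peaks (4.79), while ribosomal DNA (2.23) and pericentromeres (2.75) lie lower.

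Ribosomal DNA held the most peaks. Of its 112 peaks, 61 were on chromosome 21, 26 on the chromosome 22 scaffold KI270733v1 and 25 on the unplaced scaffold GL000220v1. The median fold was 2.23 (1.55 to 4.09), the median background 38.7 fragments (16.6 to 117) and the median pileup 91.5 (57 to 229). All 112 had a raised background and 1 had a fold of 4 or more. The 3 sequences were alike, with median folds of 2.17, 2.32 and 2.36 and median backgrounds of 42.9, 38.1 and 37.3 fragments in the order above. The peaks were also broader at the median than the 1432 other peaks of the list, with a width of 492.5 bp against 390.5 bp.

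Each summit was placed on the repeat unit by its distance from the start of the 45S transcript. This used 5 annotated 45S genes (RNA45SN1 to RNA45SN5) and 2 partial copies anchored by their 18S pseudogenes (RNA18SP3 and RNA18SP5). The gene table names no scaffold, and RNA45SN4 and RNA45SN5 were put on KI270733v1 and GL000220v1 from general knowledge. It placed 103 summits. The other 9, at the far end of KI270733v1, could not be placed, because 274 of 3501 shifts matched the other copies equally well. The 3 units with both ends annotated measured 44211, 44187 and 43972 bp.

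Summits lay all along the unit rather than in the gene alone. In those 3 units there were 4.25 summits per 10 kb of transcribed sequence (95% exact Poisson interval 2.48 to 6.81, counting error only) and 4.0 (2.82 to 5.52) per 10 kb of spacer up to the start of the next copy, so the intervals overlapped widely. Over all 7 copies, 40 summits were in the transcribed region and 63 in the spacer or the flank just upstream. The transcribed peaks had a median fold of 2.44 on a background of 32 fragments (16.6 to 44.4) and a pileup of 78.5 (59 to 119). Those of the spacer and flank had a fold of 2.10 on 54.8 (21.1 to 117) and a pileup of 111 (69 to 229). The 54 spacer peaks alone had a median fold of 2.05 on 58.4 and a pileup of 116.5. The 9 flank peaks were nearer the transcribed ones, with 2.61 on 33.1 and a pileup of 86. At the median the spacer without the flank was therefore deeper and lower in fold than the transcribed region, with overlapping ranges.

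**Figure D3:**
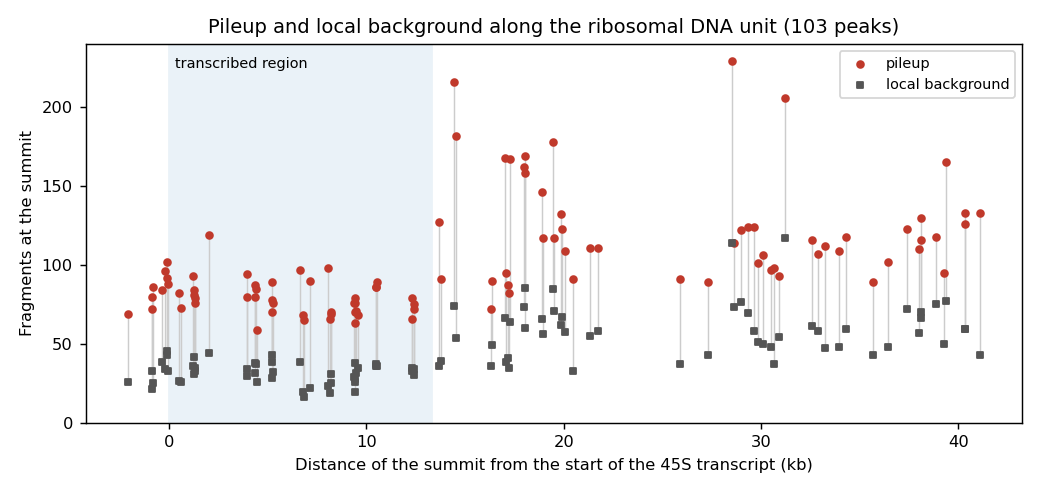
Pileup (red circles) and local background (grey squares) at each of the 103 placed summits, in fragments, against distance from the start of the 45S transcript in kb; a line joins the 2 values of a peak and the shaded span is the transcribed region. Both values are higher past the transcribed region, and no summit lies between 21.73 and 25.9 kb.

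Within the transcribed region the 28S RNA, the large one of the 60S subunit, held 18 summits (median fold 2.35). The 18S RNA, the core of the 40S subunit, held 10 (2.27), and the 5′ external transcribed spacer, which is cut away during processing, held 8 (2.60). The second internal spacer held 3 and the 5.8S gene 1 (fold 2.47), while the first internal spacer and the 3′ external spacer held none. The counts were not divided by length, so they do not rank the parts. The 28S RNA is the longest part, well beyond the 18S RNA, and the 3′ external spacer is among the shortest. Those 3 in the second internal spacer had folds of 3.33, 3.75 and 3.99 on backgrounds of 19.7, 16.6 and 21.8 fragments. They were among the highest folds of the unit, over some of its lowest backgrounds. The highest fold of all, 4.09 (pileup 98, background 23.2), was at the start of the 28S RNA in the RNA45SN2 copy, at chr21:8213911-8214303.

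The same places recurred between copies. Of the 103 summits, 67 (65%) had a summit of another copy within 100 bp of the same position, where 26.1% of positions along the copies lay that close to another copy's summit. In the transcribed region 34 of 40 recurred (85.0%, with 26.5% of positions covered), and in the spacer and flank 33 of 63 (52.4%, with 25.8% covered). Positions were plain distances without alignment of the copies, and the complete units ranged from 43972 to 44211 bp. Like places far into the spacer can therefore lie over 100 bp apart and be missed. Spacer summits also came from 5 copies and transcribed ones from 7. The lower share in the spacer and flank thus does not show that recurrence differs there. Copies of near-identical sequence can share reads, so they are no replicates of each other, and what part shared reads have in the recurrence was not tested. Apart from this, 3 ribosomal DNA peaks had the very same fold (2.05) and p, with a pileup of 89 over 42.9 fragments. They lay at different places, at 5212 of the RNA45SN2 copy and at 27312 and 35679 of the RNA45SN1 copy. Equal values also occurred among the other peaks of the list.

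Summits of 4 or more copies fell together at 8 places, counted in bp from the start of the 45S transcript. The first, from -181 to -61, covers the stretch just upstream of the start, where the RNA polymerase I promoter lies. There the RNA45SN2, RNA45SN1, RNA45SN4 and RNA18SP3 copies had folds of 2.79, 2.34, 1.99 and 2.61, with pileups of 96, 102, 92 and 88 fragments. In 3 copies a further summit lay at -868, -858 or -828, beyond the MIR6724 hairpin printed above, whose copies span -692 to -582. Those upstream summits had folds of 2.38 (RNA45SN4), 3.30 (RNA45SN2) and 3.30 (RNA45SN5).

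A second place, from 1232 to 1344 in the 5′ external spacer, was shared by 5 copies (fold 1.93 to 2.66). Inside the 18S RNA there were 2, from 4361 to 4475 and from 5212 to 5268, each with 4 copies and folds between 1.99 and 2.70. Inside the 28S RNA there were 3. The one shared most widely, from 9370 to 9454, had a summit in 6 of the 7 copies, with folds of 2.05 to 3.09 and pileups of 63 to 79 fragments. The last place, from 17008 to 17292 in the spacer, spanned 284 bp and had a summit in all 5 annotated copies, with folds of 2.10 to 2.58. In that place, and in the 28S place from 12320 to 12441, no summit had more than 2 other copies within 100 bp.

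**Figure D4:**
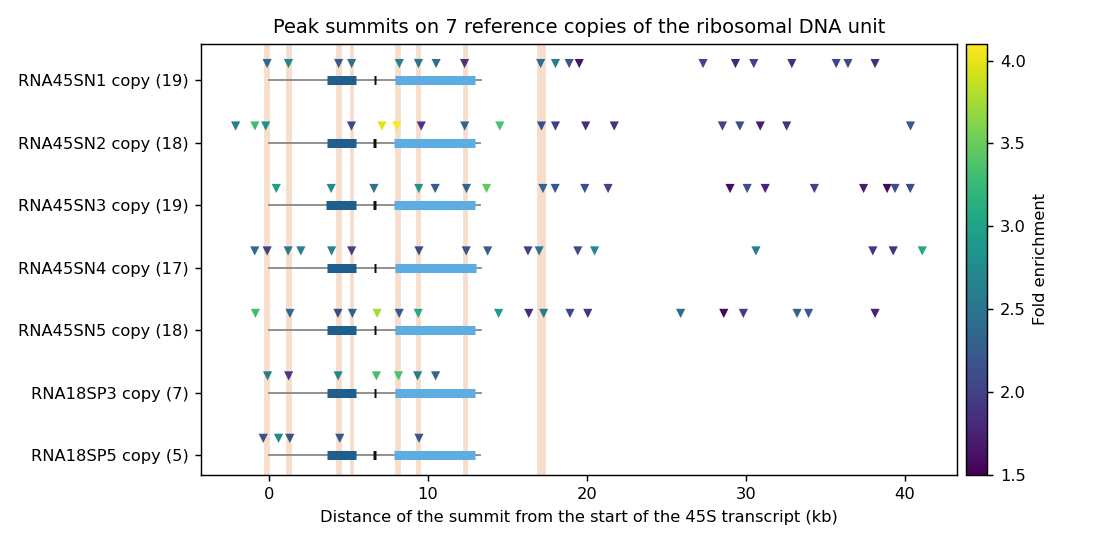
Summits (triangles, coloured by fold) on the 7 reference copies, 1 row per copy with its number of placed summits, against distance from the start of the 45S transcript in kb; thick bars are the 18S, 5.8S and 28S RNAs and the thin line the transcribed region. Pale bands mark the 8 places with summits of 4 or more copies, 7 of them at or before the end of the 28S RNA. The 2 partial copies end early and have no spacer summits.

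The ribosomal DNA peak of highest significance lay just past the transcript, 1222 bp beyond the end of RNA45SN2 (position 14536). Its fold was 3.36, with a pileup of 182 fragments over 53.5. The RNA45SN5 copy had its own most significant peak close by, at 14463, with a fold of 2.90 (pileup 216 over 73.9). On KI270733v1 the most significant peak was at 41090 of the RNA45SN4 copy, with a fold of 3.06 (pileup 133 over 42.8). The 7 copies carried from 5 summits (RNA18SP5) to 19 (RNA45SN1 and RNA45SN3), and the 5 annotated ones carried 17 to 19 each.

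One peak of the chromosome 21 window belongs to a short displaced piece of the unit, 517 kb above the last ribosomal DNA peak. MIR10396A lies there, and its hairpin of 49 bases has a run of 48 in common with that of MIR10396B inside the unit (51 bases). The distance from MIR3648 to MIR10396 was 618 bp in the fragment and 617 bp in the unit. The summit, 662 bp past MIR10396A, would fall at 3813 of the unit, 170 bp into the 18S RNA and 123 bp from the nearest summit placed on a full copy (3936). The fragment peak had a fold of 5.75, a pileup of 25 and a background of 3.52 fragments, so it was higher in fold and far lower in depth than all 112 peaks of the full copies.

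The pericentromeric peaks fell into 2 kinds. Of the 58, 30 were on chromosome 1, 15 on chromosome 19, 8 on chromosome 5 and 5 on chromosome 10. All were far from genes, 36.8 to 3611 kb from the nearest on chromosome 1 and at least 536 kb elsewhere. No repeat annotation was used here, so calling them satellite rests on position. The first kind is 10 peaks of chromosome 1 that flank the large gap after its centromere, 3 between 125178944 and 125182669 and 7 between 143184825 and 143262883. Their median pileup was 1510 fragments (443 to 3977) over a background of 962 (215 to 3121.5), with a median fold of 1.84 (1.27 to 2.25).

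These 10 peaks, 0.608% of the list, held 22.9% of its summed summit pileup. The deepest, at chr1:125180024-125180495, had the largest pileup (3977 fragments) and the lowest fold (1.27) of the whole list. On the far side of the gap, chr1:143232923-143233253 had the highest significance of the list, a −log10 p of 177.183. Its pileup was 2314 fragments over 1202, a fold of 1.92. The greatest depth and the greatest significance of the list thus both came with folds under 2. The scaffold KI270438v1 had 2 peaks of the same sort, with folds of 1.66 and 1.65, pileups of 1994 and 1483 and backgrounds of 1199 and 898 fragments.

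The second kind is the 48 other pericentromeric peaks, with a median fold of 2.92 (1.73 to 6.06), a background of 19.0 fragments (1.99 to 146) and a median width of 305.5 bp. On chromosome 1, 20 of them spread from 121765608 to 124764075, with a median fold of 2.96. The highest fold there, 6.06, was at chr1:122759242-122759563, with a pileup of 52 over 7.74 fragments. The most significant of the 20 was chr1:124673081-124673373, with a fold of 3.03 (pileup 446 over 146).

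Chromosome 19 had a median fold of 2.78 over 24.6 fragments of background. Its highest fold was 5.35 (pileup 15 over 1.99) and its lowest 1.79 (pileup 136 over 75.3). Its most significant peak, at chr19:25961773-25962047, had a pileup of 246 over 88.0 fragments and a fold of 2.78. There, 2 peaks almost 2 Mb apart had identical folds of 2.81, with a pileup of 71 over 24.6 fragments each. Chromosome 5 ranged from 1.76 (pileup 247 over 140) to 5.02 (pileup 57 over 10.6), and chromosome 10 from 1.78 (pileup 56 over 31.0) to 4.16 (pileup 21 over 4.29). On every chromosome the highest folds stood on backgrounds of 10.6 fragments or less.

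The windows of chromosomes 5 and 10 have listed peaks close outside them. The nearest lay 69.3 kb below the chromosome 5 window (fold 1.9, background 99.3 fragments) and 17.3 kb above it (4.77, background 6.34). For chromosome 10 they lay 62.7 kb below (3.14, background 6.34) and 12.6 kb above (3.54, background 3.52). Only the first of these 4 had a background above 6.51 fragments. On chromosome 19 the next peaks were 5384 and 2515 kb away, so there the window is well separated.

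The snRNA gene array of chromosome 17 stood apart from the other repeats in fold. It holds RNU2-1, which encodes U2 snRNA, and 12 more annotated snRNA genes of 191 to 192 bp between 43233790 and 43300231. Its 8 peaks had a median fold of 5.58 (2.59 to 7.80) and 7 of them reached a fold of 4. Their background was nonetheless raised, at a median of 13.0 fragments (6.57 to 32.4). This is the one group here with both a raised background and folds like those of the other peaks. The highest fold of all 213 peaks, 7.80, was 545 bp from LOC124904136 (chr17:43241722-43242110, pileup 58 over 6.57). The most significant was 673 bp from LOC124904137, with a pileup of 159 over 32.4 fragments and a fold of 4.79.

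In this array 6 summits kept a like distance from the gene next to them. They lay 545, 673, 510, 456, 520 and 473 bp past its higher-coordinate end. Their folds in that order were 7.80, 4.79, 6.17, 4.58, 5.90 and 5.26. The remaining 2 lay 124 bp on the lower side of LOC124904138 (fold 6.09) and 2310 bp from LOC124904142 (fold 2.59). In all, 7 of the 13 genes had a summit within 1 kb and RNU2-1 was not among them. The table gives no strand, so whether these summits are upstream or downstream of transcription is not given here.

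The tRNA array of chromosome 1 holds 23 tRNA genes between 161440171 and 161471205. It had 3 peaks, with folds of 2.0, 3.18 and 2.04, pileups of 46, 47 and 37 and backgrounds of 22.5, 14.1 and 17.6 fragments. Their summits lay 98 bp below TRE-CTC1-3, 119 bp below TRD-GTC2-4 and 105 bp above TRE-CTC1-5, which carry glutamate, aspartate and glutamate. Unlike the snRNA array, these peaks had folds as low as those of ribosomal DNA.

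**Figure D5:**
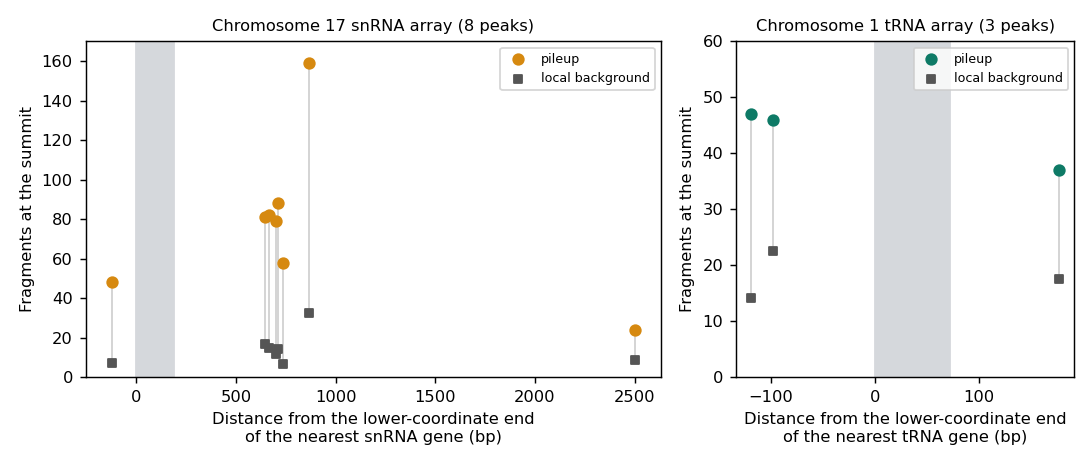
Pileup (circles) and local background (squares) in fragments against the distance of the summit from the lower-coordinate end of the nearest gene, for the 8 peaks of the snRNA array (left) and the 3 of the tRNA array (right); grey spans are the genes and the 2 panels have different axes. In the snRNA array 6 summits cluster on one side of the gene with pileups of 58 to 159 fragments, while the tRNA summits lie within 119 bp on both sides with pileups of 37 to 47.

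Few other small RNA genes had a peak. Over all annotated genes, 3.31% had a summit inside or up to 1 kb away. Of the 20 listed genes for 45S, 18S, 28S and 5.8S RNA, 18 did, through the ribosomal DNA peaks above. None of the 17 genes of 5S RNA, the ribosomal RNA made by RNA polymerase III from its own array, had one, nor did any of 21 U1 genes or of 3 genes with a U2 symbol. Of 443 tRNA genes 13 did (2.93%), 9 of them through the repeat peaks, which is near the share over all genes. Of 17 genes for other snRNAs only RNU12 had one (fold 4.80). None of the 18 listed NBPF and NOTCH2NL genes of chromosome 1 had one.

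Mitochondrial DNA is present in many copies per cell and lies outside the nucleus. It carried 4 peaks. Their summits were in RNR2, the 16S ribosomal RNA (fold 3.50, pileup 36 over 9.57), in ATP8, an ATP synthase subunit (2.83, 45 over 15.3), at TRNL2, a leucine tRNA (2.86, 38 over 12.6), and 26 bp from TRNP, the proline tRNA (3.14, 22 over 6.34). The first 3 were wide, at 1257, 830 and 926 bp, and the fourth was 425 bp. Because genes are packed closely there, these 4 peaks were within 1 kb of 20 of the 37 mitochondrial genes.

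Alternate loci are second versions of a chromosome region that hg38 lists beside the main one. Their 16 peaks, on 12 such sequences, looked like ordinary peaks. The median fold was 4.67 (3.17 to 7.53), the background 2.82 fragments (1.92 to 5.63) and the pileup 18.5 (12 to 30), and 11 of 16 reached a fold of 4 (68.8%, against 67.8% of all peaks). They belonged to chromosomes 8 (5 peaks), 6 (4), 16 (3), and 3, 4, 5 and 12 (1 each). The highest and the lowest fold were both on chromosome 16 sequences, 7.53 (pileup 21 over 1.92) and 3.17 (pileup 20 over 5.63). The gene table does not name genes on these sequences.

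The other scaffolds were mixed. GL000224v1 had 3 peaks with folds of 1.87, 2.51 and 1.86 over backgrounds of 62.7, 38 and 94.3 fragments, and GL000226v1 had 1 with a fold of 2.10 over 143. GL000218v1 and KI270715v1 had 1 peak each, with folds of 4.11 and 5.19 over only 1.92 and 3.24 fragments. The single peak of the chromosome 1 histone cluster had a fold of 3.32 over 7.74 fragments. Its summit lay in the model of H4C15, a histone H4 gene.

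Chromosome Y had 2 peaks. One lies in the region that X and Y share, at chrY:1391728-1392077, with a fold of 7.39 (pileup 22 over 2.11). Its counterpart on X, at chrX:1391768-1392139, is in the list too, with a fold of 5.17, a pileup of 19 over 2.87 and a summit 24 bp away. The Y summit is 272 bp into SLC25A6, an ADP/ATP carrier of the mitochondrial membrane. The 101 bases printed above are the same on X and Y. Their ACTTCCGG ends 40 bp from the summit. Of 34943 promoter windows of 300 bases, 4.11% hold CCGGAAGT or its reverse complement and 95.4% hold GGAA or TTCC, so the match is a description of this window. The other Y peak, at chrY:9374890-9375220, had a fold of 3.28 (pileup 18 over 4.79) and lay in FAM197Y7, a long noncoding RNA gene.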

How the data were processed

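The deposited file is a headerless MACS2 narrow peak list. Per the submitters' processing notes the tools were Bowtie2, MACS2 and deepTools and the build hg38; the sources used here do not give versions, settings, library depth or how reads with several matches were treated. The authors' deposited values per peak are a score (not analysed), a fold (a ratio to local background), and the −log10 of p and of q. From fold and p, a whole-number pileup and a background were recovered for all 1645 peaks (largest error 0.000834 in log10 p; on simulated data 202 of 202). Genes, promoters and hairpins are RefSeq's (GRCh38.p14, 59792 genes); no genome or repeat annotation was used. The peaks named are, per locus, those of highest and lowest fold and of highest significance, all peaks of loci with 5 or fewer, and the nearest peaks outside each window; the places shared by 4 or more copies, the copies of a pair, peaks of equal values and the other peaks given singly were added after their values were seen. The members and gene lists were chosen with earlier results of these data known. With 1 list and no replicates nothing was tested, and intervals cover counting only. Computations used Python 3.11.15, SciPy 1.17.1, numpy 2.4.6, matplotlib 3.10.9 and pandas 2.3.3.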

Additional observations from a re-analysis of the deposited data

How the results depend on the processing

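Keeping the upper 50% of peaks by significance left 132 of the 213 peaks, 71 of the 112 in ribosomal DNA, 37 of the 58 at pericentromeres and 7 of the 16 on alternate loci; that setting keeps fewer peaks by construction. The median fold was 3.17 without ribosomal DNA and, in a setting added after seeing the data, 2.27 over the peaks of raised background alone, both below the 4.79 of the other peaks. At a fold limit of 3, also added later, 31.5% of these peaks passed, against 88.3% of all peaks. Recurring summits numbered 47 and 78 of 103 (45.6% and 75.7%) at tolerances of 50 and 200 bp, against 67 (65%). The share of positions that close to another copy's summit was 15.2% and 44.9%, against 26.1%. Genes with a peak were also counted over the listed ribosomal RNA, snRNA, tRNA, mitochondrial, NBPF and NOTCH2NL genes. These numbered 41 and 78 within 500 bp and 3 kb, against 52 within 1 kb. The 52 include 20 mitochondrial genes, protein-coding ones among them, but not the LOC genes of the chromosome 17 array. With a stricter q, other background factors and another anchor of the ribosomal DNA unit, counts stayed within 1.5 times the reported ones. That anchor, the 18S start, lies 3631 to 3658 bp into every copy, so it could change the recurrence little. It does not check positions far into the spacer. No paired analysis was possible because AM-ERG and Vector have 1 library each and the list has no values per library. Depth per library is unknown, so weak peaks missed at shallow places cannot be counted.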
